A study of Homo sapiens with 13 samples.

Results

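The genes described here are 34 chaperones, degradation factors, translocation subunits and stress sensors of the endoplasmic reticulum. They were chosen as a list of symbols by function, with earlier results of these data known. Of these, 33 were measured among the 18404 genes of the arrays: 14 of 15 chaperones and folding enzymes, all 10 degradation factors, all 3 translocation subunits and all 6 sensors and regulators. The remaining gene, PDIA3, was named only on rows that also carry other genes, and it was not used. RNA came from SW480, an established human colon cancer cell line, and was hybridised to 13 Affymetrix Human Gene 1.0 ST arrays, which measure each transcript with probes along its length. Cells had been treated for 6 h with 0.1% DMSO, the solvent (n = 4), with DFO (deferoxamine, n = 4), with Deferasirox (n = 3) or with OICR623, a compound known here by its code name alone (n = 2). The first 2 compounds are drugs that bind iron. By the labels the dose was 10 mM for OICR623, 50 mM for Deferasirox and 100 mM for DFO. The unit is improbable for cultured cells and could not be settled, and the doses differ between compounds. All groups are the same single line at 1 time point, and the replicates are described as independent experiments.

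The endoplasmic reticulum folds secreted and membrane proteins with chaperones such as HSPA5 (BiP) and with disulfide isomerases. Proteins that fail to fold are passed back through the membrane and destroyed by the proteasome, a route called ER-associated degradation (ERAD). When misfolded proteins accumulate, the sensors ATF6, ERN1 (IRE1) and EIF2AK3 (PERK) start the unfolded protein response: cleaved ATF6 and spliced XBP1 enter the nucleus and switch on chaperone and ERAD genes, while EIF2AK3 slows translation and favours ATF4 and its target DDIT3 (CHOP).

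The arrays fell into 3 levels by their median log2 signal, and the level was a block in every fit unless said otherwise. DMSO 1 and DFO 1 formed the high level, with medians of 7.17 to 7.19. Deferasirox 3, DFO 4 and DMSO 4 formed the low level, at 6.52 to 6.55, and 2 arrays of each of the 4 groups formed the middle level, at 6.64 to 6.69. DMSO 1 and DFO 1 carried exactly equal values on 8530 of 32321 rows (26.4%), against at most 107 rows (0.331%) for any other pair of arrays. Among the members, ATF6, DERL2, EDEM3, HSP90B1, MANF, SDF2L1 and SEL1L were equal on these arrays, so their high-level difference is 0 by those values. Of 8 colon epithelial markers, EPCAM, KRT8, KRT18, KRT19 and CDX2 lay at percentiles 75.1 to 99.7 of all genes by mean DMSO signal and CLDN7 just above their median, while CDH1 and VIL1 lay below it. All 4 endothelial, 4 leukocyte, 3 plasma cell and 3 goblet cell markers, and 5 of 6 fibroblast markers, lay below the median. In bulk RNA, fewer cells of a type and less RNA per cell cannot be told apart.

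Promoters of the members were read for the elements through which ATF6 and XBP1 are known to act, since several members are textbook targets of this route. The windows are those of RefSeq on GRCh38.p14, 300 bases each, and 31 of the 33 measured members had an entry (DERL1 and DERL3 had none). Searched on both strands were the ER stress response element ERSE (CCAAT, 9 bases of any kind, then CCACG), ERSE-II (ATTGG, 1 base of any kind, then CCACG) and the core of the unfolded protein response element UPRE (TGACGTGG). The 2 longest stretches below belong to HSPA5 and HERPUD1, the members called higher under Deferasirox that hold a match of ERSE or ERSE-II. Another 4 members called higher there, DNAJB9, SEL1L, EDEM1 and CREB3L2, hold no such match. The shorter stretches show the same elements in other members. Each runs 5′ to 3′ on the strand of its gene, and capitals mark the fixed letters of ERSE or ERSE-II. Where the match is on the opposite strand, the capitals show its reverse complement. The stretches are HSPA5 at chr9:125241344-125241593 (minus strand), HERPUD1 at chr16:56931892-56932141 (plus), HSP90B1 at chr12:103930206-103930349 (plus), HYOU1 at chr11:119057264-119057400 (minus), SDF2L1 at chr22:21642104-21642134 (plus), CALR at chr19:12938374-12938412 (plus), CRELD2 at chr22:49918544-49918582 (plus) and XBP1 at chr22:28800593-28800631 (minus).
HSPA5: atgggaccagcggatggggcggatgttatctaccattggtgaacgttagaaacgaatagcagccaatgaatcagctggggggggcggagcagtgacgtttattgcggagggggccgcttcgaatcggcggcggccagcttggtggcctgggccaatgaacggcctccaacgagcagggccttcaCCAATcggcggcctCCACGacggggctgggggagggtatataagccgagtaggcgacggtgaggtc
HERPUD1: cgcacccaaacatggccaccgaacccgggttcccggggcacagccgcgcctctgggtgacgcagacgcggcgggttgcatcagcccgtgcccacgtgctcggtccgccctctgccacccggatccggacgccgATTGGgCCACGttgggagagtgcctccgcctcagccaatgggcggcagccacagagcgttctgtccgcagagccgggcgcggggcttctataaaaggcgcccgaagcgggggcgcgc
HSP90B1: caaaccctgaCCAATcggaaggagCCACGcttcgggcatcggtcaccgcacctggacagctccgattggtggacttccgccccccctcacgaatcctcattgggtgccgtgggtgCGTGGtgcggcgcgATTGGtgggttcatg
HYOU1: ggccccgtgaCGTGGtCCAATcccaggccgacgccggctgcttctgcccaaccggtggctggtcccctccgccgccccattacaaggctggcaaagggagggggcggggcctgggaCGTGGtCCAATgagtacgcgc
SDF2L1: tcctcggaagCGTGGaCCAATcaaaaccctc
CALR: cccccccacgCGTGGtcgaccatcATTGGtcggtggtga
CRELD2: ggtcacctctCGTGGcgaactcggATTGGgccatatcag
XBP1: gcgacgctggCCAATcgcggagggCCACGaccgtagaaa

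ERSE was found in the windows of HSPA5, HSP90B1, CALR, CANX, PDIA6, CRELD2 and XBP1, 7 of 31 members with an entry (22.6%), against 25 of 27305 genes (0.0916%). ERSE-II was found in HERPUD1, HYOU1 and SDF2L1, 3 of 31 (9.68%), against 19 genes (0.0696%), and the UPRE core in DNAJC10 and HYOU1, 2 of 31 (6.45%), against 253 genes (0.927%). Over the 35116 windows of all genes, which include several starts of some genes, the shares were 0.0769%, 0.0541% and 0.729%. HSP90B1 held 2 ERSE matches and HYOU1 held 2 ERSE-II matches, of which the farther one overlaps its UPRE core. The exact ERSE match of HSPA5 lies 66 to 48 bases before the start of transcription and the exact ERSE-II match of HERPUD1 117 to 107 bases before it. The elements counted here are exact matches of letters in 1 window per start, near matches were not searched, and no binding was measured. Several members were listed as textbook targets of this route, so a higher share among them comes with the choice of list and is not a test.

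**Figure D1:**
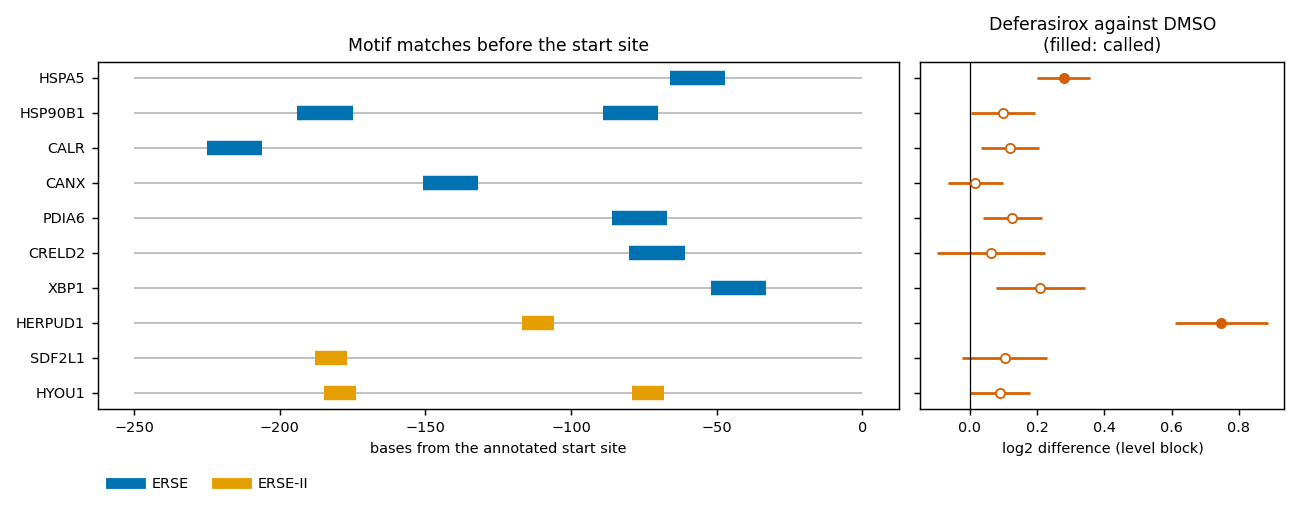
Left, ERSE and ERSE-II matches (bars) in the promoters of the 10 members that hold them, in bases relative to the annotated start of transcription, with 1 line per gene and, for CANX, 1 of its starts. Right, the log2 difference of Deferasirox against DMSO of the same genes with its 95% interval, filled where called. HSPA5 holds an exact ERSE match 66 to 48 bases before the start and HERPUD1 an exact ERSE-II match 117 to 107 bases before it.

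Under Deferasirox 6 of the 33 members rose, HERPUD1, DNAJB9, SEL1L, EDEM1, HSPA5 and CREB3L2, and 0 fell (limma with p adjusted after Benjamini and Hochberg across the whole table, called under 0.05). Of all 18404 genes 5.84% were called, 2.83% higher and 3% lower. Under DFO 2 members rose, HERPUD1 and DNAJB9, and EDEM2 fell, where 4.6% of all genes were called, 1.89% higher and 2.72% lower. Under OICR623 0 members were called, as were 0.734% of all genes. In that comparison 6 members had an unadjusted p under 0.05, and 10.7% of all genes did. The 3 comparisons share the same 4 DMSO arrays, and they are set side by side here without a test of their likeness.

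Across the members the differences were small and, under Deferasirox, mostly upward. The median member difference from DMSO on the log2 scale was 0.11 under Deferasirox, 0.05 under OICR623 and 0.01 under DFO, and that of all genes was 0.00 in each. Under Deferasirox 32 of 33 members lay above 0, where 51% of all genes did, and the unadjusted 95% interval lay above 0 for 20 members, against 8.66% of all genes. Every Deferasirox array lay above every DMSO array of its level for 22 members, which 15.6% of all genes did. Under OICR623 this held for 14 members (17.1% of all genes) and under DFO for 9 (7.61% of all genes). The list was chosen with earlier results of these data known, so these shares describe the members and are not a test.

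**Figure D2:**
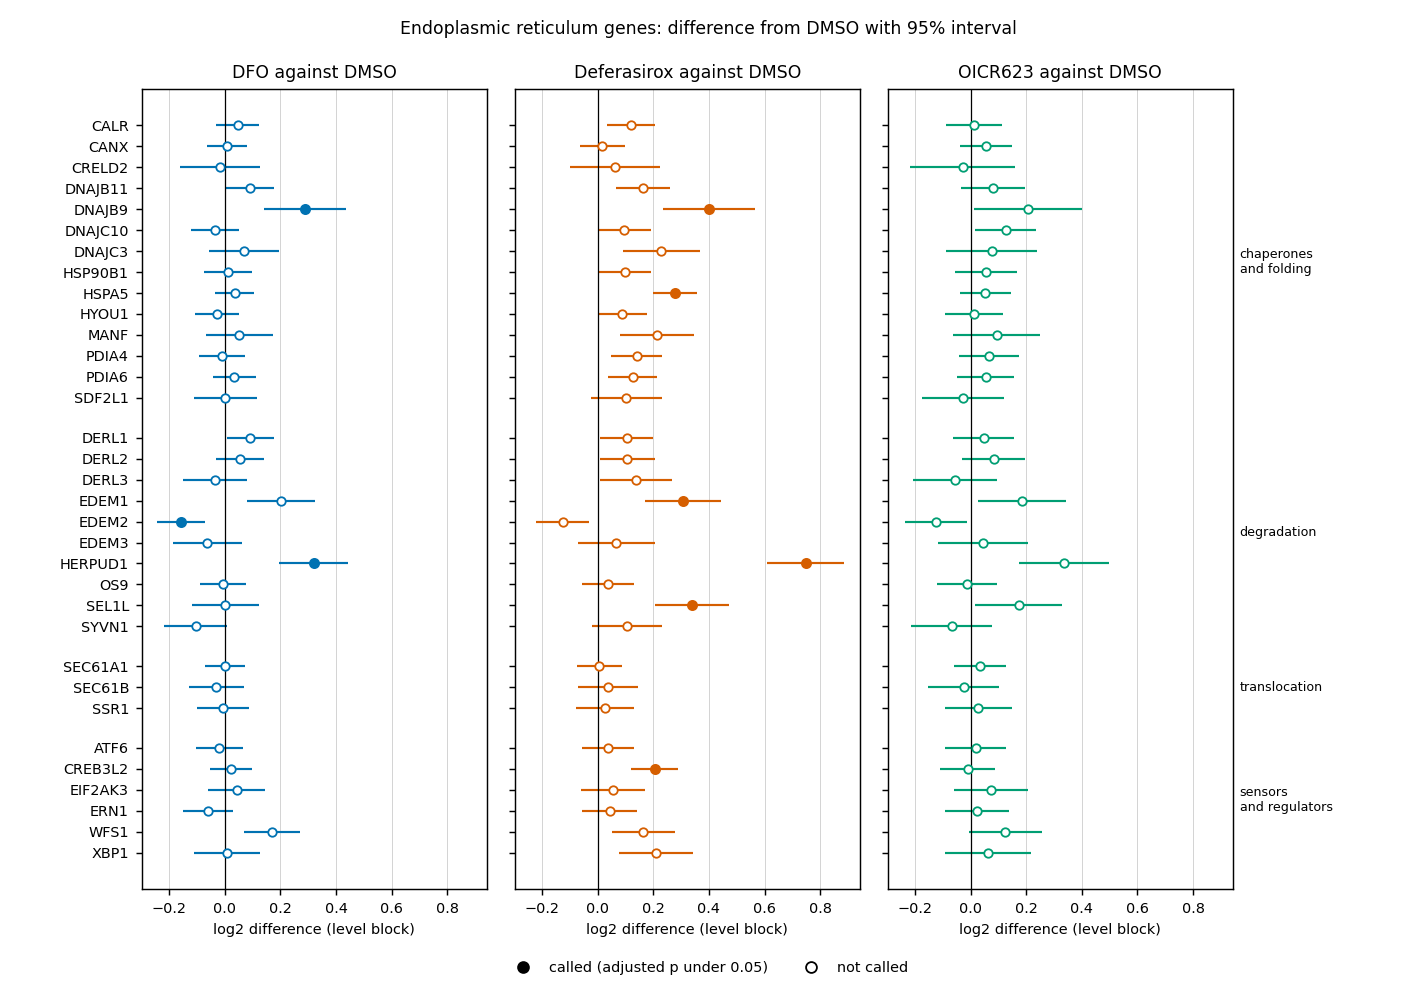
Log2 difference from DMSO of each measured member (points) with its 95% interval (lines), by role, for DFO, Deferasirox and OICR623, from limma with the array level as a block. Filled points are called at an adjusted p under 0.05: 3 under DFO, 6 under Deferasirox and 0 under OICR623.

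Of the 14 measured chaperones and folding enzymes, 2 rose under Deferasirox, HSPA5 and DNAJB9, 1 rose under DFO, DNAJB9, and 0 fell under either. Of all genes, 2.83% were called higher under Deferasirox and 1.89% under DFO. HSPA5, the main Hsp70 chaperone of the lumen and the protein that holds the stress sensors inactive, had log2 signals of 12.86, 12.57, 12.58 and 12.27 on DMSO 1 to 4. It read 12.82, 12.86 and 12.58 on Deferasirox 1 to 3. Within each level every Deferasirox array was above every DMSO array, by 0.26 in the middle level and 0.31 in the low one. The fitted difference was 0.28 on the log2 scale (SE 0.04, n = 3 against 4, limma adjusted p = 9.4e-04), or 1.21-fold. On DFO 1 to 4 HSPA5 read 12.90, 12.59, 12.62 and 12.32, with a difference of 0.04, and on both OICR623 arrays 12.62, with a difference of 0.05.

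DNAJB9 (ERdj4), a co-chaperone that returns ERN1 to its inactive state through HSPA5, read 7.54, 7.45, 7.45 and 6.56 on DMSO 1 to 4. It read 7.73, 7.62, 7.75 and 7.04 on the DFO arrays, 7.67, 7.94 and 7.09 on the Deferasirox arrays, and 7.59 and 7.66 on the OICR623 arrays. Every treated array was above the DMSO arrays of its level, and the low-level arrays stood lowest in each group that had one. The difference was 0.40 under Deferasirox (SE 0.08, limma adjusted p = 0.0099) and 0.29 under DFO (SE 0.07, adjusted p = 0.035). It was 0.21 under OICR623 (adjusted p = 0.43). Within the low level, where DMSO 4 read 6.56, the differences were 0.48 for DFO and 0.53 for Deferasirox, larger than the 0.24 and 0.36 of the middle level. Without DMSO 4 or without Deferasirox 3 the Deferasirox call was lost, and the DFO call was lost without any 1 of DMSO 1 to 4, DFO 1, DFO 3, DFO 4 or Deferasirox 3.

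The other 12 chaperones and folding enzymes were not called, and under Deferasirox all 12 had differences above 0, where 51% of all genes did. DNAJC3 (p58IPK), a co-chaperone that also restrains EIF2AK3, stood at 0.23 (limma adjusted p = 0.063), and MANF, a secreted stress-induced factor, at 0.21 (adjusted p = 0.070). DNAJB11 (ERdj3), a co-chaperone of HSPA5, stood at 0.16 (adjusted p = 0.060), and the disulfide isomerases PDIA4 and PDIA6 at 0.14 and 0.13. The lectin chaperone CALR stood at 0.12, SDF2L1, a partner of the Hsp70 system, at 0.10, HSP90B1 (GRP94) at 0.10, the disulfide reductase DNAJC10 (ERdj5) at 0.10 and HYOU1 (GRP170), a nucleotide exchange factor for HSPA5, at 0.09. CRELD2, a stress-induced folding factor, stood at 0.06 and the lectin chaperone CANX at 0.02. Under DFO these 12 lay between -0.04 for DNAJC10 and 0.09 for DNAJB11, and under OICR623 between -0.03 for CRELD2 and 0.13 for DNAJC10. Of the 10 members with an ERSE or ERSE-II match, HSPA5 and HERPUD1 were called under Deferasirox. Of the 21 members with an entry and neither match, 4 were called, DNAJB9, SEL1L, EDEM1 and CREB3L2, where 5.84% of all genes were. The median difference was 0.11 for both of these sets. The search took exact matches in the windows alone, so the second set is not known to lack such elements. The sets were not compared by a test.

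Of the 10 degradation factors, 3 rose under Deferasirox, HERPUD1, SEL1L and EDEM1. HERPUD1 rose under DFO, where EDEM2 fell. Of all genes, 2.83% were called higher under Deferasirox, and 1.89% higher and 2.72% lower under DFO. HERPUD1 (Herp) is a membrane protein that gathers the ERAD machinery around the ubiquitin ligase SYVN1. It read 10.66, 10.15, 10.23 and 9.96 on DMSO 1 to 4, and 11.03, 11.03 and 10.58 on Deferasirox 1 to 3. It read 10.86, 10.55, 10.69 and 10.17 on DFO 1 to 4, and 10.55 and 10.63 on OICR623 1 and 2. Every treated array was above every DMSO array of its level, with the Deferasirox arrays highest within both levels they share with the others. In the fit with the level block HERPUD1 had the largest difference of the 33 members under each compound. Under Deferasirox it was 0.75 (SE 0.06, limma adjusted p = 5.7e-05), or 1.68-fold, with 0.84 in the middle level and 0.62 in the low level. Under DFO it was 0.32 (SE 0.06, adjusted p = 0.0071), or 1.25-fold. Under OICR623 it was 0.34 (SE 0.07, interval 0.18 to 0.50, adjusted p = 0.077), with 2 arrays behind it. HERPUD1 was called under Deferasirox and under DFO in all 13 fits that left out 1 array.

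SEL1L, the adaptor that keeps SYVN1 stable and brings substrates to it, read 10.01, 8.93, 8.86 and 8.72 on DMSO 1 to 4 and 9.26, 9.23 and 9.04 on the Deferasirox arrays. Its DFO arrays read 10.01, 8.83, 8.92 and 8.77 and its OICR623 arrays 9.19 and 8.94. The high-level arrays stood about 1 log2 unit above the others in both groups, and SEL1L is a gene with equal values on DMSO 1 and DFO 1. Within the middle and low levels every Deferasirox array was above the DMSO arrays, with a fitted difference of 0.34 (SE 0.06, limma adjusted p = 0.0073). The differences under DFO, at 0.00, and OICR623, at 0.17 (adjusted p = 0.41), were not called.

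The EDEM proteins are mannosidase-related lectins that pick out misfolded glycoproteins for ERAD, and the 3 measured family members did not share 1 direction. EDEM1 read 9.10, 8.33, 8.17 and 8.01 on DMSO 1 to 4 and 8.58, 8.53 and 8.33 on Deferasirox 1 to 3. Every Deferasirox array was above the DMSO arrays of its level, with a difference of 0.31 (SE 0.06, limma adjusted p = 0.014). This call was lost without DMSO 3, DMSO 4, Deferasirox 1 or Deferasirox 3. EDEM1 stood at 0.20 under DFO (adjusted p = 0.074) and 0.18 under OICR623 (adjusted p = 0.38). EDEM2 read 9.45, 8.80, 8.75 and 8.83 on DMSO 1 to 4 and 9.25, 8.63, 8.56 and 8.76 on DFO 1 to 4. Every DFO array lay below the DMSO arrays of its level, with a difference of -0.16 (SE 0.04, limma adjusted p = 0.046). EDEM2 was the 1 member whose interval lay below 0 under each compound, with -0.13 under Deferasirox (adjusted p = 0.14) and -0.12 under OICR623 (adjusted p = 0.41), and its DFO call held in 2 of 13 fits that left out 1 array, those without an OICR623 array. EDEM3 lay between -0.06 and 0.07 under the 3 compounds, not called.

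The other degradation factors were not called. The ligase gene SYVN1 (HRD1) stood at 0.11 under Deferasirox, -0.10 under DFO and -0.07 under OICR623. The channel proteins of the derlin family stood at 0.10 for DERL1, 0.11 for DERL2 and 0.14 for DERL3 under Deferasirox, and the lectin OS9 at 0.04. Under DFO the derlins and OS9 lay between -0.04 for DERL3 and 0.09 for DERL1.

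The 3 translocation subunits, SEC61A1 and SEC61B of the protein channel and SSR1 of the translocon-associated complex, were not called under any compound. Their differences lay between -0.03 and 0.04, where the median member moved by 0.11 under Deferasirox.

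**Figure D3:**
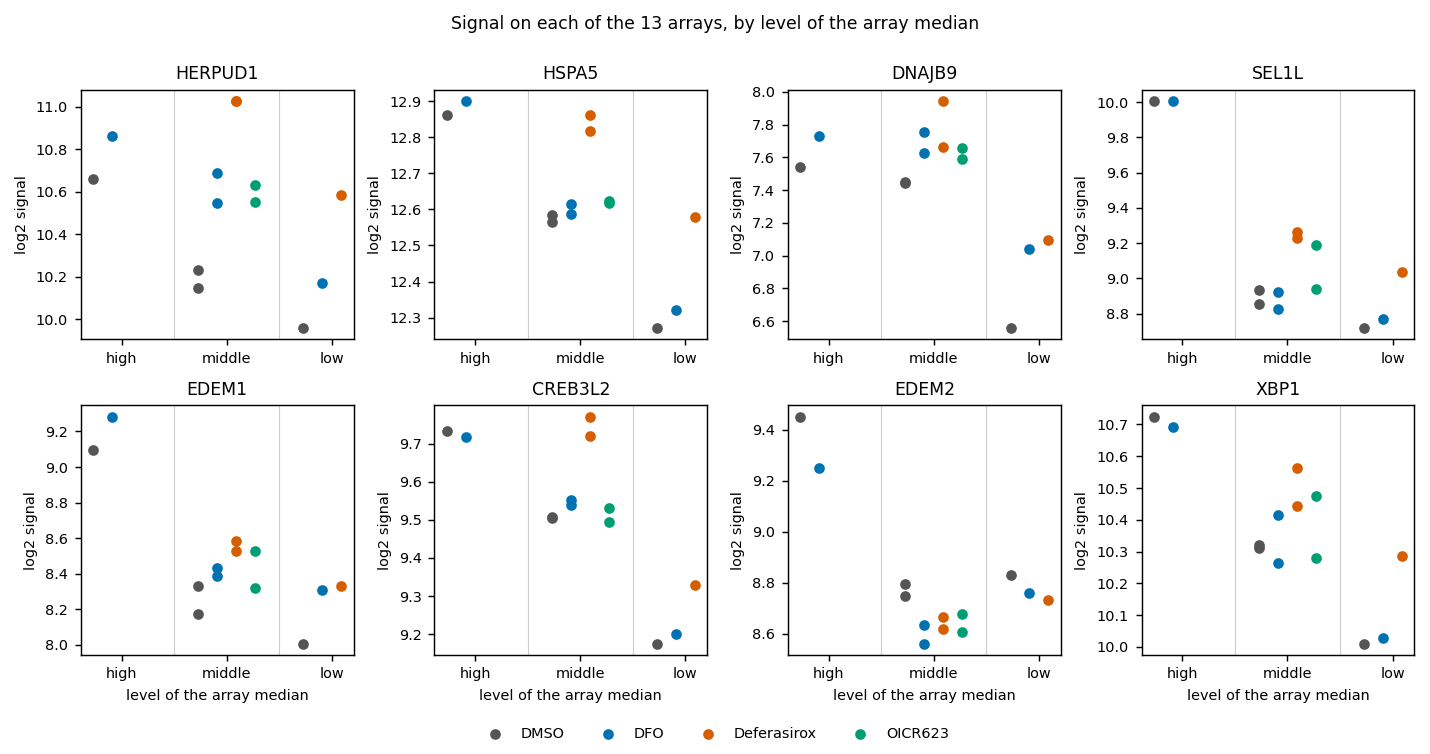
Log2 signal of the 7 members called against DMSO and of XBP1 on each of the 13 arrays (points), by array level along the horizontal axis and by treatment in colour. The vertical axes differ between genes and do not start at 0. HERPUD1 reads 11.03 on Deferasirox 1 and 2, above the 10.15 and 10.23 of DMSO 2 and 3 of the same level.

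Among the 6 sensors and regulators, 1 was called, CREB3L2, under Deferasirox, where 5.84% of all genes were called. CREB3L2 is a membrane-bound transcription factor of the ATF6 kind that is released by cleavage in the Golgi. It read 9.73, 9.50, 9.51 and 9.18 on DMSO 1 to 4 and 9.72, 9.77 and 9.33 on Deferasirox 1 to 3. Within the middle and low levels every Deferasirox array was higher, by 0.24 and 0.15, with a fitted difference of 0.20 (SE 0.04, limma adjusted p = 0.010). It read 9.72, 9.55, 9.54 and 9.20 on DFO 1 to 4, with a difference of 0.02, and 9.49 and 9.53 on the OICR623 arrays, with -0.01.

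XBP1, the transcription factor gene whose mRNA is spliced by ERN1, stood at 0.21 under Deferasirox (limma adjusted p = 0.076), 0.01 under DFO and 0.06 under OICR623. It read 10.31 and 10.32 on DMSO 2 and 3, 10.44 and 10.56 on Deferasirox 1 and 2, 10.01 on DMSO 4 and 10.29 on Deferasirox 3. There is 1 value per gene and array, so spliced and unspliced XBP1 were not measured apart. WFS1 (wolframin), a membrane protein that restrains ATF6, stood at 0.17 under DFO (adjusted p = 0.066), 0.16 under Deferasirox (adjusted p = 0.098) and 0.13 under OICR623 (adjusted p = 0.49). The transcripts of the sensors ATF6, ERN1 and EIF2AK3 had differences between -0.06 and 0.07 and were not called. The activity of a sensor, which is set by cleavage and phosphorylation, was not measured.

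Set against each other at these unequal doses, the 3 compounds gave 0 called members in each of 3 comparisons. Of all genes, 0.0435% were called between Deferasirox and DFO, 0.168% between OICR623 and DFO, and 0.0869% between OICR623 and Deferasirox. At an unadjusted p under 0.05 the members numbered 14, 2 and 7, against 10%, 5.67% and 8.54% of all genes. These p values come from limma and were adjusted over all genes of each of the 3 comparisons.

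HERPUD1 was higher under Deferasirox than under DFO by 0.43 (interval 0.29 to 0.57, limma adjusted p = 0.056). HSPA5 differed by 0.24 (interval 0.16 to 0.32, adjusted p = 0.056), SEL1L by 0.34 (interval 0.20 to 0.47, adjusted p = 0.095) and CREB3L2 by 0.18 (adjusted p = 0.15). Every Deferasirox array lay above every DFO array of its level for 17 members, against 11.9% of all genes. OICR623 against Deferasirox gave -0.41 for HERPUD1 (interval -0.58 to -0.25, adjusted p = 0.080) and -0.23 for HSPA5 (adjusted p = 0.093). OICR623 against DFO gave 0.02 for HERPUD1, with an interval of -0.14 to 0.18, so differences within those bounds were not resolved. The 2 members with an unadjusted p under 0.05 there were SEL1L and DNAJC10, the latter at 0.16 (adjusted p = 0.62).

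**Figure D4:**
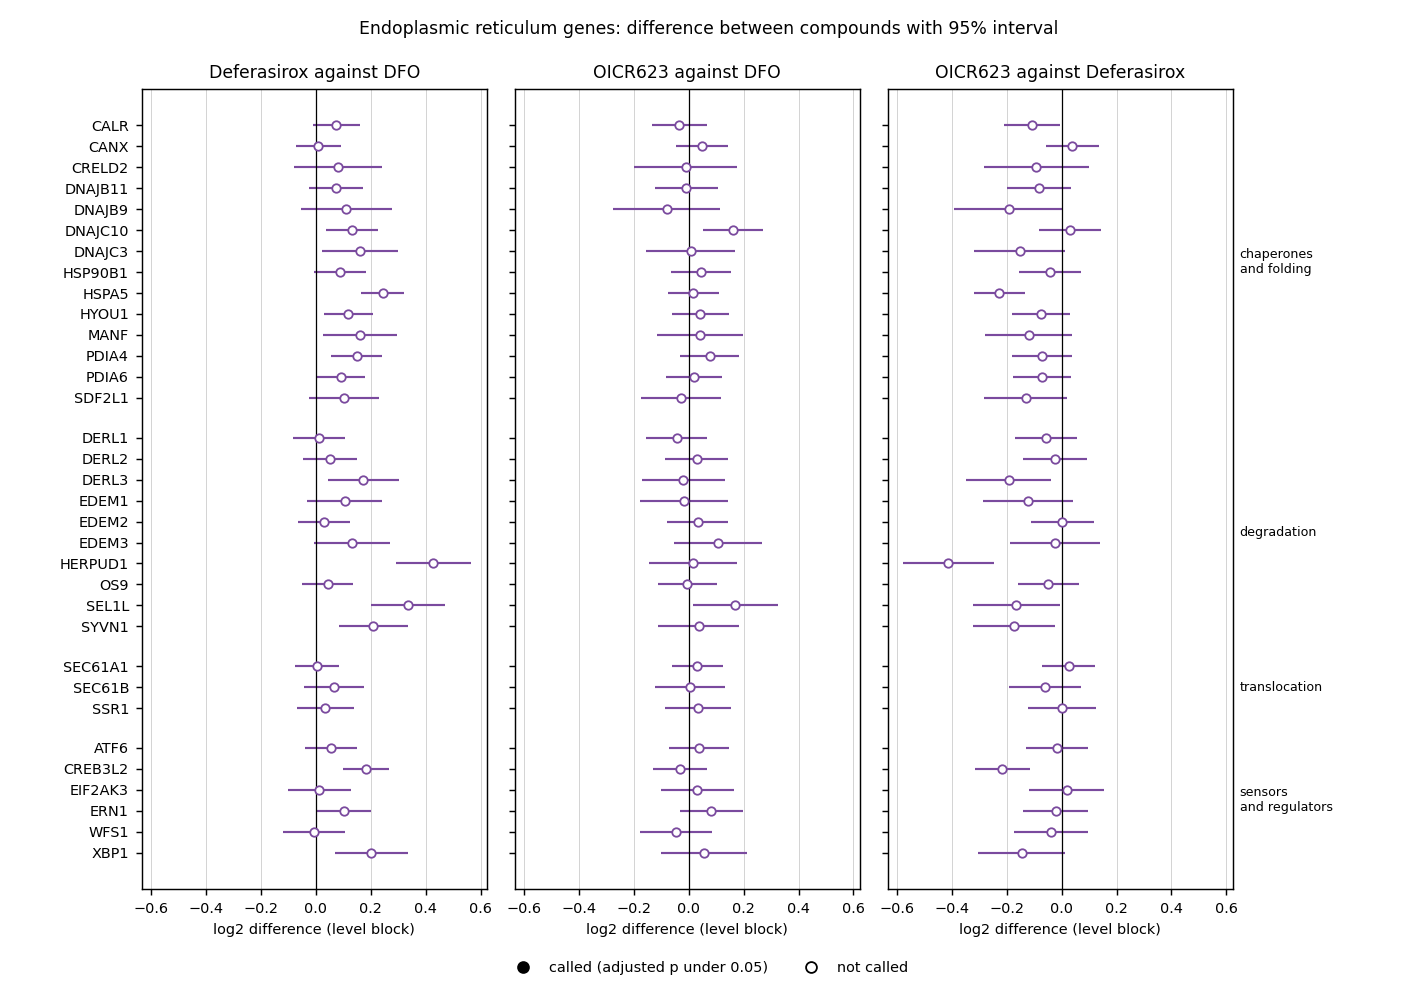
Log2 difference of each measured member between compounds (points) with its 95% interval (lines), by role, at the doses used, which differ. No point is filled, as 0 members were called; HERPUD1 lies at 0.43 for Deferasirox against DFO and at -0.41 for OICR623 against Deferasirox.

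A wider list of 71 genes of folding, degradation, translocation and regulation, 65 of them measured, gives the rest of the pathway. Under Deferasirox 2 of these 65 rose, 0 fell and 63 were not called, where 5.84% of all genes were called, and the median difference was 0.03. ERO1A, the oxidase that recharges disulfide isomerases and a known target of hypoxia-inducible factor, rose by 0.28 (SE 0.05, limma adjusted p = 0.0067). UBE2J1, a ubiquitin-conjugating enzyme of ERAD, rose by 0.21 (SE 0.05, adjusted p = 0.026), a call lost without DMSO 3, DMSO 4 or any 1 of the Deferasirox arrays. Under DFO ERO1A rose by 0.20 (SE 0.04, limma adjusted p = 0.030), DDIT3 fell and 63 were not called, where 4.6% of all genes were called. The ERO1A call under DFO was lost without any 1 of DMSO 1, 3 and 4 or DFO 1, 3 and 4. Under OICR623 0 were called, with ERO1A at 0.19 and UBE2J1 at 0.18 (adjusted p = 0.23 for both), and 3 had an unadjusted p under 0.05, where 0.734% of all genes were called and 10.7% had such a p. The counts of this list were thus near or below those of all genes.

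Of the 12 measured regulators of the wider list, DDIT3 was called, lower under DFO, and 0 were called under Deferasirox or OICR623. Of all genes, 4.6%, 5.84% and 0.734% were called under DFO, Deferasirox and OICR623. Under Deferasirox 9 of the 12 lay above 0, where 51% of all genes did, with a median of 0.06. The unadjusted interval lay above 0 for 3, against 8.66% of all genes. DDIT3 read 8.79, 8.34, 8.07 and 8.05 on DMSO 1 to 4 and 8.53, 7.80, 7.83 and 7.77 on DFO 1 to 4. Every DFO array was below the DMSO arrays of its level, with a difference of -0.33 (SE 0.07, limma adjusted p = 0.030), a call lost without any 1 of DMSO 1, 2 and 4 or DFO 1, 2 and 3. Under Deferasirox DDIT3 stood at -0.06 and under OICR623 at -0.18 (adjusted p = 0.57). TRIB3, a pseudokinase gene induced through ATF4 and DDIT3, stood at 0.01, 0.07 and -0.01 under DFO, Deferasirox and OICR623. ATF4 stood at -0.10, -0.03 and -0.02, and P4HB, the most abundant disulfide isomerase in many cells, at 0.03, 0.10 and 0.01. These 3 genes were not called under any compound. The highest regulator under Deferasirox was PPP1R15A (GADD34), which restores translation after EIF2AK3 has slowed it, at 0.29 (SE 0.08, adjusted p = 0.056), and CHAC1, a glutathione-degrading enzyme induced through ATF4, stood at 0.19 (adjusted p = 0.24). Both were named after their values were seen. They stood at 0.11 and 0.06 under DFO and at 0.15 and 0.07 under OICR623, not called.

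Without a block, on the values as deposited, limma called 0 members under any compound, against 0.245% of all genes under DFO, 0.234% under Deferasirox and 0.038% under OICR623, and the median difference of the members under Deferasirox was -0.06, where that of all genes was -0.15. HERPUD1 then stood at 0.63 under Deferasirox. With each array centred on its median and no block, HERPUD1 was the 1 member called, under Deferasirox, where 177 of 18404 genes were called. In the 8 middle-level arrays alone HERPUD1 was the 1 member called under DFO and under Deferasirox. Of all genes, 274 and 326 were called there, against 847 and 1074 with the level block on all arrays. Without the 3 low-level arrays, a setting chosen after seeing the data, HERPUD1 and HSPA5 were called under Deferasirox and HERPUD1 under DFO. Of all genes, 371 were then called under Deferasirox and 340 under DFO. DMSO 1 and DFO 1 are the whole of the high level, and leaving out either gives 1 and the same fit. In it HERPUD1 (0.36, adjusted p = 0.012) and WFS1 (0.22, adjusted p = 0.022) were called under DFO, while DNAJB9 (0.32, adjusted p = 0.057) and EDEM2 (-0.14, adjusted p = 0.16) were not. All 6 Deferasirox calls were kept in that fit, and WFS1 was added. Of all genes, it called 769 under DFO and 986 under Deferasirox.

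**Figure D5:**
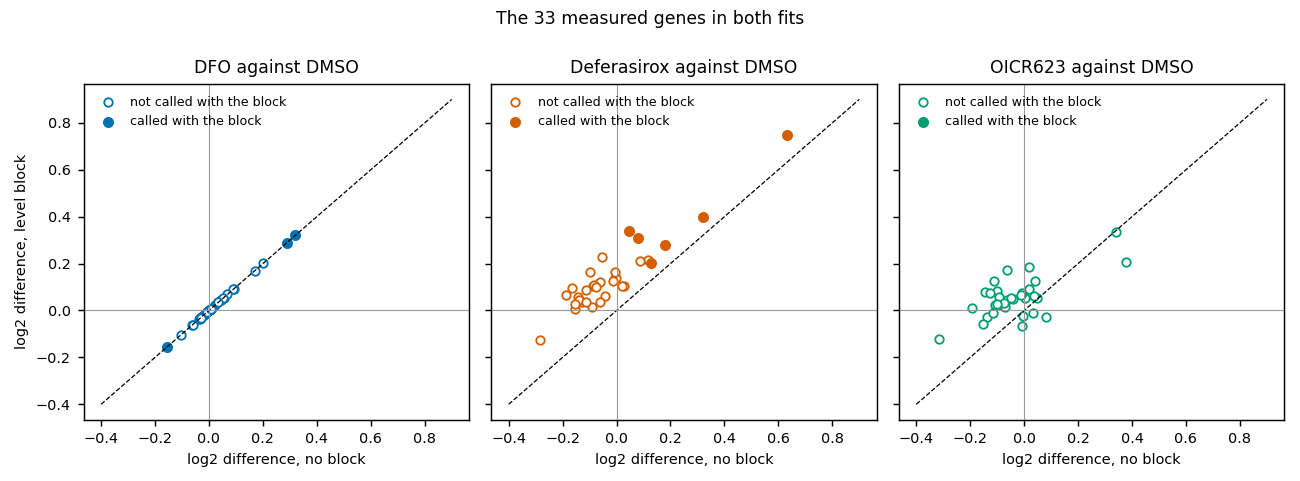
Log2 difference from DMSO of each measured member in the fit with the array level as a block against the fit without it, for each compound; the dashed line marks equal values and filled points were called with the block. Under Deferasirox the median member lies at 0.11 with the block and at -0.06 without it.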

How the data were processed

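The authors deposited log2 signals, with 1 value for each transcript cluster on every array. Per the submitters' processing notes GCRMA and limma were used, with no version or order; the genome build is not given in the sources used here. Of 32321 rows, 19158 carry 1 gene symbol, 1388 several and 11775 none. The row with the highest mean was kept for 637 genes with several, leaving 18404 genes, with no filter on dim ones. The values hold no detection calls, and precision is limited by how many arrays there are. Arrays were split into levels where sorted medians lay more than 0.05 apart. limma 3.58.1 (R 4.3.3) was fitted to all 13 arrays with group and level, with empirical Bayes moderation and Benjamini-Hochberg adjustment over all genes, called under 0.05. Intervals are unadjusted 95% intervals. The script was tested on simulated data with 50 changed genes at each size. At a log2 size of 0.25 it called 22 of 50 for DFO, 16 for Deferasirox and 8 for OICR623 against DMSO. At a size of 0.5 it called 47, 47 and 44. A gene not called may thus still differ by about 0.25, and some changed by 0.5 were missed. Fewer genes were changed there than the 847 and 1074 called under DFO and Deferasirox, so the share recovered in these data may differ.

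Alternatives left out the block, centred or quantile-normalized arrays, took the level as a random block (statmod 1.5.0), the middle level alone or a replicate block, changed the filter, row rule or eBayes trend, and left out each array. Same-numbered DMSO and DFO arrays deviated together (correlations 0.945, 0.662, 0.738 and 0.788), but they also share levels. With level means removed, the middle-level pairs gave 0.081 and 0.125 and the low-level pair -0.533, while the high-level pair is -1 by construction. The labels state no pairing, and the numbers were not taken as pairs. Members and lists were chosen with earlier results of these data known. Every member is given by value or range. Members called in any comparison with DMSO are given by array for DMSO and for each compound under which they were called. Of the wider list up to 6 called genes per comparison and DDIT3, TRIB3, ATF4, ERO1A and P4HB are named.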

Additional observations from a re-analysis of the deposited data

Results flagged for a closer look

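SEL1L stood apart on DMSO 1 and on DFO 1. Minus the median of the 18404 genes on the same array, which is not the median over all rows that sets the levels, its log2 signal was 1.98 on DMSO 1, against 1.46 to 1.54 on the other DMSO arrays, and 1.99 on DFO 1, against 1.45 to 1.52 on the other DFO arrays. The gap to the nearest array was over Dixon's 95% critical value in both groups. These were 2 of 14 groups of 4 arrays tested, and chance marks about 1 in 20. DMSO 1 and DFO 1 are the arrays of the high level and carry equal SEL1L values; the part of either in the result was not tested. Without DMSO 1 or DFO 1 SEL1L was still called under Deferasirox.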

How the results depend on the processing

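Calls depended on how the array levels were handled. Without any block the counts of called genes were 45 for DFO, 43 for Deferasirox and 7 for OICR623 against DMSO, and 0 for each pair of compounds; called members numbered 0 in all, as did the wider list. With arrays centred on their medians and no block they were 162, 177 and 24, and 0, 13 and 0 for Deferasirox against DFO, OICR623 against DFO and OICR623 against Deferasirox, with 0 members called under DFO and 1 under Deferasirox (HERPUD1), and 0 of the wider list. In the middle level alone they were 274, 326 and 81, and 0 for Deferasirox against DFO and 7 for OICR623 against Deferasirox, with 1 member each under DFO and Deferasirox and 0 of the wider list. Without the 3 low-level arrays, a setting chosen after seeing the data, they were 340, 371 and 72, with 0 for Deferasirox against DFO and 10 for OICR623 against Deferasirox, 1 member under DFO, 2 under Deferasirox (HERPUD1 and HSPA5) and 0 of the wider list.

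With the replicate number as a block in place of the level, the counts were 78, 127 and 10, and 0 for each pair of compounds, with 0 members and 0 of the wider list. EDEM1 at -0.036, ERO1A at -0.052 and SEL1L at -0.0825 then changed sign under Deferasirox, where the median of all genes was -0.24; the cause was not tested. With the replicate block together with the level block they were 769, 400 and 36, and 0, 17 and 6 for the pairs, with 2 members under DFO (HERPUD1 and DNAJB9), 3 under Deferasirox (HERPUD1, HSPA5 and MANF) and 1 of the wider list under Deferasirox. With a replicate block on the 8 DFO and DMSO arrays alone, 619 genes, 1 member (HERPUD1) and 1 of the wider list were called.

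Other settings mostly raised counts between compounds. The random block gave 20, 47 and 56 for the pairs and 178 for OICR623, while it lowered the counts to 798 for DFO and 983 for Deferasirox. It called 1 member (HERPUD1) each under OICR623, for Deferasirox against DFO and for OICR623 against Deferasirox. Of the wider list it called 1 under DFO. Leaving out the dimmest genes gave 1080 of 13803 genes for DFO, 1361 for Deferasirox and 203 for OICR623. It gave 35 for Deferasirox against DFO and 59 for OICR623 against Deferasirox. Members called then numbered 5 under DFO, 11 under Deferasirox and 1 under OICR623. For Deferasirox against DFO and OICR623 against Deferasirox they numbered 3 and 2. The eBayes trend gave 1206, 1514 and 338 of 18404 genes for DFO, Deferasirox and OICR623, and 85, 58 and 119 for the pairs. Members called numbered 5, 14 and 1 against DMSO, and 4 and 3 for Deferasirox against DFO and OICR623 against Deferasirox. Of the wider list, 5 and 1 were called under Deferasirox and OICR623. Quantile normalization gave 853 genes and 5 members under DFO, and 1126 genes and 8 members under Deferasirox.

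Leaving out 1 array at a time gave 494 to 846 genes for DFO, 546 to 1066 for Deferasirox, 33 to 173 for OICR623, and 0 to 10, 8 to 32 and 0 to 26 for the pairs. Members called ranged from 1 to 4 under DFO, 4 to 7 under Deferasirox (4 without DMSO 4 or Deferasirox 3), 0 to 1 under OICR623, 0 to 1 for Deferasirox against DFO and 0 to 0 for the other pairs; the wider list ranged from 0 to 2 under DFO and 1 to 3 under Deferasirox. The differences of HERPUD1 under DFO and Deferasirox kept their direction in every setting run.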

Other observations

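The promoter windows of 44 genes held ERSE or ERSE-II, and 34 of these genes are not members. Of the 26 that were measured, 1 was called higher and 3 lower under Deferasirox, where 2.83% and 3% of all genes were. Their median log2 difference was -0.03, with a range of -0.42 to 0.35. The 10 members with the same elements had a median of 0.11. The gene called higher was CAMTA1, at 0.35 (SE 0.08, limma adjusted p = 0.026), and those called lower were ZNF17 at -0.42, ZNF143 at -0.29 and NAV2 at -0.23. FICD, the enzyme that modifies HSPA5 with AMP, stood at 0.21 (adjusted p = 0.092), and ERO1B, a disulfide oxidase of secretory cells, at 0.23 (adjusted p = 0.12). These genes were looked up after the member values had been seen, and the comparison of the sets has no test.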
